A study of Rattus norvegicus with 320 samples.

Results

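The miR-181 family was followed through the 10 rows of the count table whose names begin with rno-miR-181a, rno-miR-181b, rno-miR-181c or rno-miR-181d, with any arm or copy suffix, among 616 miRNA rows in all. They are 4 strands cut from the 5′ side of their hairpins (rno-miR-181a-5p, rno-miR-181b-5p, rno-miR-181c-5p and rno-miR-181d-5p, written without the prefix from here on) and 6 cut from the 3′ side (miR-181a-1-3p, miR-181a-2-3p, miR-181b-1-3p, miR-181b-2-3p, miR-181c-3p and miR-181d-3p). The counts come from small RNA sequencing of 11 organs of Fisher 344 rats, an inbred strain, kept in pairs under standard conditions. The labels name no drug, diet or genetic change, and they divide the groups by organ, sex and age. Rats were 2, 6, 21 or 104 weeks old, and 4 rats of each sex were taken at each age. Adrenal gland, brain, heart, kidney, lung, liver, muscle, spleen and thymus came from both sexes (n = 8 libraries per organ and age, or 7 in brain at week 6 and spleen at week 104), testis from males and uterus from females (n = 4). Each organ was ground whole, so a library mixes all cell types of an organ.

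Of 320 libraries, 318 were used, with 315550 to 10571766 counts per library (median 2848156). The library of male brain at week 6, replicate 3, and that of female spleen at week 104, replicate 4, were left out. The study had removed both. Levels are given in CPM, the counts of a member per 1000000 miRNA counts of the library. They are shares, so a member can fall in CPM because other miRNAs rose. The study lists the week-2 spleens as exceptions to a good RNA integrity number, and the testis libraries of weeks 6 and 21 as mostly piRNA, a class of small RNA that is not in this count table. It also names female brain at week 104, replicate 4, for a share of miRNA reads far below that of other brain libraries. That library was used here. The mature strands have 19 to 23 bases, and levels of different members are compared as CPM with no correction for length.

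MicroRNAs are short RNAs cut from hairpin transcripts. A strand of the hairpin is loaded into an Argonaute protein and pairs, mainly through its seed near the 5′ end, with messenger RNAs, which lowers their translation and stability, while the other strand is usually degraded. The miR-181 family is known from T cell development in the thymus, where miR-181a represses phosphatases that dampen signals from the T cell receptor, and its members have also been studied in brain, heart and muscle.

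The 5p strands are the products the results turn on, and are shown with the seed (bases 2 to 8) in capitals:
miR-181a-5p: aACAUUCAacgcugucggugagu
miR-181b-5p: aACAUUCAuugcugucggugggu
miR-181c-5p: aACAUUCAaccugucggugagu
miR-181d-5p: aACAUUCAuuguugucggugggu

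All 4 carry the seed ACAUUCA, which no other of the 616 rows has. Counted from the 5′ end, miR-181b-5p and miR-181d-5p differ by C12U alone, and miR-181a-5p and miR-181b-5p by A9U, C10U and A21G. The strand of miR-181c-5p has 22 bases and the others have 23, and 1 edit turns it into miR-181a-5p. In the study's alignment with Bowtie, reads with fewer than 2 mismatches were counted. Part of the reads of miR-181b-5p may therefore stand in the row of miR-181d-5p, or the reverse. Between miR-181a-5p and miR-181c-5p the edit is a missing base, which shifts the bases after it and is not a single mismatch. All rows outside the family are at least 7 edits away from each member.

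The 3p strands tell the gene copies apart and are shown in the same way:
miR-181a-1-3p: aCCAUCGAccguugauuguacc
miR-181c-3p: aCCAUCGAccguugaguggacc
miR-181a-2-3p: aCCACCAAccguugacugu
miR-181d-3p: cCACCGGGggaugaauguca
miR-181b-1-3p: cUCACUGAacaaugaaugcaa
miR-181b-2-3p: cUCACUGGucaaugaaugcaaa

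miR-181a-1-3p and miR-181c-3p share the seed CCAUCGA and differ by U16G and U19G. Of the 10 members, 9 have a mature entry in RefSeq (build GRCr8), with the same bases as the count table. miR-181b-2-3p has none there and was located inside the RefSeq hairpin of Mir181b2.

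These strands come from 3 places in the rat genome, here on build GRCr8 and all on the plus strand. Mir181a-1 (chr13:52037067-52037166) and Mir181b1 (chr13:52037228-52037337) lie 61 bases apart within the long noncoding RNA gene LOC108352541. Their mature products are miR-181a-5p at chr13:52037081-52037103 and miR-181b-5p at chr13:52037263-52037285, and the 3p strands are miR-181a-1-3p at chr13:52037121-52037142 and miR-181b-1-3p at chr13:52037303-52037323. Mir181a2 (chr3:43025563-43025679) and Mir181b2 (chr3:43026666-43026753) lie 986 bases apart within the protein-coding gene Nr6a1, which encodes an orphan nuclear receptor, and within the long noncoding RNA gene LOC120101539. They give miR-181a-5p at chr3:43025601-43025623 and miR-181a-2-3p at chr3:43025646-43025664. Mir181c (chr19:40888291-40888396) and Mir181d (chr19:40888474-40888556) lie 77 bases apart and overlap no other annotated gene. They give miR-181c-5p at chr19:40888314-40888335 and miR-181d-5p at chr19:40888484-40888506. The nearest gene is Nanos3, at 1135 and 975 bases. The 5p strand of miR-181a is identical at its chr13 and chr3 copies, as is that of miR-181b, so 5p counts cannot be split between these places, whereas the 3p strands can.

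The hairpin of Mir181a2 is shown because its 3p strand stands apart in muscle, with the 5p and 3p strands in capitals:
Mir181a2: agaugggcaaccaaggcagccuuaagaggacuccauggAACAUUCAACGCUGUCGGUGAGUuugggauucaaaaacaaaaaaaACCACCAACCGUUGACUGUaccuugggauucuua

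A further row of the table, miR-3570, is the exact reverse complement of miR-181a-1-3p, and its gene Mir3570 overlaps Mir181a-1. It held 597 counts over all libraries, 0.134% of those of miR-181a-1-3p, and at most 16 in 1 library. Whether the counting used the strand of the read is not given in the sources used here.

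The first question was where each member was most abundant. miR-181a-5p had the highest level of the members in every organ, and at weeks 2, 6 and 21 it ranked 1 among all miRNAs in thymus. Its lowest, median and highest level in thymus was 300055, 396838 and 461215 CPM at week 2, 214802, 390250 and 423913 CPM at week 6 and 249345, 315673 and 386723 CPM at week 21. In brain it was 65649, 106687 and 131658 CPM at week 2, 101097, 116328 and 147130 CPM at week 6 and 77433, 89181 and 131791 CPM at week 21, and ranked 2 at all 4 ages. Up to week 21, every thymus library lay above every brain library, and brain came next among the organs.

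The 4 5p members together took 41.5, 39.04, 32.9 and 6.49% of all miRNA counts of thymus at weeks 2, 6, 21 and 104 (means of 8 libraries). At week 2 the share ranged from 32.7 to 48.8%, and at week 104 from 1.53 to 11.3%. In brain the share was 11.8, 13.8, 11.02 and 11.6%, and in liver, the organ with the lowest share at weeks 2, 6 and 21, it was 1.21, 0.752, 0.518 and 0.678%.

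**Figure D1:**
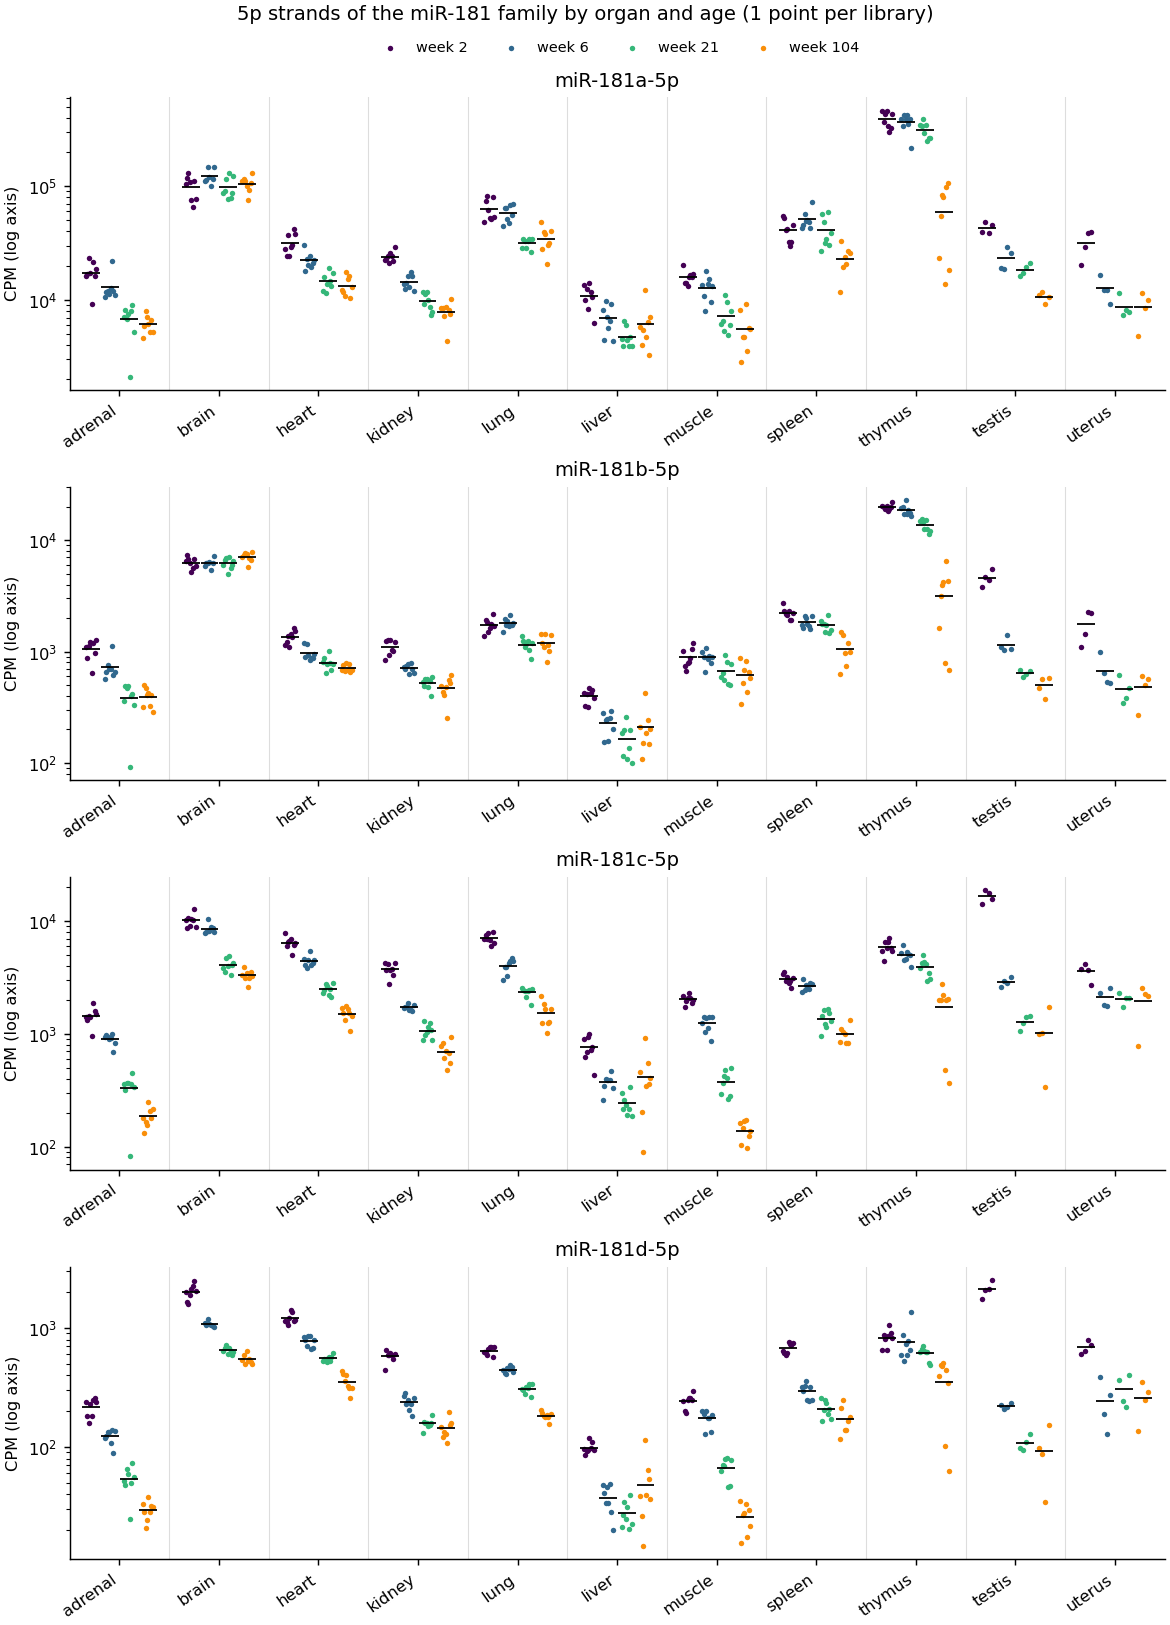
Levels of the 4 5p members in CPM on a log axis, with 1 point per library, colors for age and a line at each mean, for 11 organs. Thymus stands above the other organs for miR-181a-5p and miR-181b-5p up to week 21, and testis at week 2 has the highest means of miR-181c-5p and miR-181d-5p.

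Organs were compared by the quasi-likelihood test of edgeR, with TMM scaling of the counts and Benjamini-Hochberg adjustment over all miRNAs, and called at an adjusted p under 0.05. Of 880 tests of a 5p member in a pair of organs at an age, 727 were called, against 62.0% of all tests over all miRNAs. At week 2, the mean level of miR-181a-5p was 388604 ± 63664 in thymus, 99128 ± 23487 in brain, 62963 ± 13659 in lung and 43024 ± 4848 in testis CPM (± SD, n = 8 libraries, or 4 for testis and uterus). It was 41353 ± 9337 in spleen, 31928 ± 9087 in uterus, 31817 ± 6621 in heart and 23972 ± 2542 in kidney CPM. The lowest means were 17409 ± 4255 in adrenal gland, 15901 ± 2284 in muscle and 10886 ± 2616 in liver CPM. In this order, 5 of the 10 neighboring pairs passed the edgeR test, and brain and lung, testis and spleen, spleen and uterus, heart and kidney and adrenal gland and muscle did not (adjusted p = 0.0937 to 1).

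At week 104, the mean level of miR-181a-5p was 105467 ± 16814 in brain, 59620 ± 37178 in thymus, 34646 ± 8673 in lung and 23036 ± 6639 in spleen CPM (± SD). It was 13399 ± 2698 in heart, 10616 ± 1102 in testis, 8681 ± 2863 in uterus and 7859.8 ± 1659.9 in kidney CPM. Last came 6106 ± 2733 in liver, 6091 ± 1116 in adrenal gland and 5553 ± 2152 in muscle CPM. In this order, 4 of the 10 neighboring pairs passed the edgeR test, and brain and thymus, spleen and heart, heart and testis, testis and uterus, liver and adrenal gland and adrenal gland and muscle did not (adjusted p = 0.234 to 0.773). Brain came first and thymus second, and thymus had the largest SD of the 11 organs.

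miR-181b-5p also had thymus and brain at the head of its order. At week 2, the mean level of miR-181b-5p was 19857 ± 1127 in thymus, 6306 ± 715 in brain, 4590.2 ± 688 in testis and 2215 ± 253 in spleen CPM (± SD). It was 1758 ± 593 in uterus, 1737 ± 247 in lung, 1347 ± 187 in heart and 1105 ± 174 in kidney CPM. At the low end were 1046 ± 206 in adrenal gland, 891 ± 179 in muscle and 401 ± 56.2 in liver CPM. In this order, 6 of the 10 neighboring pairs passed the edgeR test in the direction of the means, and brain and testis and adrenal gland and muscle did not pass (adjusted p = 0.119 to 0.314). With TMM the other 2 pairs were called against the order of the CPM means, uterus above spleen and kidney above heart, and with library size only both had the sign of the means. The week-104 means of miR-181b-5p were 7091 ± 676 in brain, 3162 ± 2024 in thymus, 1194 ± 228 in lung and 1061 ± 328 in spleen CPM (± SD). It was 710.1 ± 51.4 in heart, 615 ± 185 in muscle, 498 ± 94.9 in testis and 483 ± 148 in uterus CPM. The last 3 were 470.0 ± 111 in kidney, 392 ± 77.2 in adrenal gland and 209 ± 96.6 in liver CPM. In this later order, 5 of the 10 neighboring pairs passed the edgeR test, and spleen and heart, heart and muscle, muscle and testis, testis and uterus and kidney and adrenal gland did not (adjusted p = 0.0724 to 0.749).

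miR-181c-5p and miR-181d-5p, from the chr19 genes, had another order, with testis first at week 2. At week 2, the mean level of miR-181c-5p was 16720.1 ± 2059 in testis, 10141 ± 1326 in brain, 7063 ± 680.2 in lung and 6456 ± 827 in heart CPM (± SD). It was 5864 ± 833 in thymus, 3750.0 ± 503 in kidney, 3611 ± 621 in uterus and 3058 ± 305 in spleen CPM. The smallest means were 2025 ± 184 in muscle, 1438 ± 259.7 in adrenal gland and 759 ± 185 in liver CPM. Along this order, 5 of the 10 neighboring pairs passed the edgeR test in the direction of the means, thymus was called above heart against them (log2 0.65 with TMM, -0.14 with library size only), and brain and lung, lung and heart, kidney and uterus and spleen and muscle did not pass (adjusted p = 0.14 to 0.675). By week 104, the means of miR-181c-5p were 3302 ± 393 in brain, 1945 ± 793 in uterus, 1729.8 ± 848 in thymus and 1516 ± 389 in lung CPM (± SD). It was 1505 ± 229 in heart, 1012 ± 564 in testis, 994 ± 187 in spleen and 695 ± 151 in kidney CPM. Below these were 415 ± 248 in liver, 186 ± 37.5 in adrenal gland and 138 ± 28.5 in muscle CPM. Here 4 of the 10 neighboring pairs passed the edgeR test in the direction of the means, and thymus and lung, lung and heart, heart and testis, spleen and kidney and adrenal gland and muscle did not pass (adjusted p = 0.0663 to 0.823). The first pair was called against the means, since uterus minus brain was 1.36 with TMM (edgeR adjusted p = 7.17e-05) and -0.76 with library size only. With TMM, miR-181c-5p and miR-181d-5p were each called higher in week-104 uterus than in 10 of 10 organs, of which 6 and 5 calls were kept in all 4 scalings, against 25.8% of all tests of uterus at that age.

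miR-181d-5p had the lowest mean of the 5p members in every organ and age. At week 2, the mean level of miR-181d-5p was 2132 ± 316 in testis, 2001 ± 289 in brain, 1206 ± 124 in heart and 829.5 ± 132 in thymus CPM (± SD). It was 692 ± 85.1 in uterus, 678 ± 68.5 in spleen, 645 ± 50.6 in lung and 579.7 ± 63.9 in kidney CPM. The lowest 3 were 244 ± 32.5 in muscle, 217 ± 37.3 in adrenal gland and 98.9 ± 10.4 in liver CPM. Down this order, 5 of the 10 neighboring pairs passed the edgeR test in the direction of the means, and brain and heart, spleen and lung and muscle and adrenal gland did not pass (adjusted p = 0.0572 to 0.16). Against the means, thymus was called above heart and kidney above lung with TMM, and both had the sign of the means with library size only. By week 104, the means of miR-181d-5p were 545 ± 47.6 in brain, 354 ± 59.6 in heart, 353 ± 175 in thymus and 257 ± 91.1 in uterus CPM (± SD). It was 184 ± 14.6 in lung, 171 ± 45.7 in spleen, 144 ± 27.9 in kidney and 92.8 ± 48.6 in testis CPM. At the end stood 48.4 ± 30.4 in liver, 29.6 ± 5.47 in adrenal gland and 25.97 ± 7.01 in muscle CPM. Of these, 2 of the 10 neighboring pairs passed the edgeR test in the direction of the means, and brain and heart, heart and thymus, lung and spleen, kidney and testis, liver and adrenal gland and adrenal gland and muscle did not pass (adjusted p = 0.0567 to 0.773). Uterus was called above thymus and kidney above spleen with TMM, against the means, and both had the sign of the means with library size only.

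miR-181a-5p was higher in thymus than in 10, 10, 10 and 9 of the 10 other organs at weeks 2, 6, 21 and 104. Over all miRNAs, 32.4, 30.7, 27.0 and 26.7% of the tests at these ages called thymus higher. For miR-181b-5p the counts were 10, 10, 10 and 9 of 10. All of these calls were kept in 4 scalings of the libraries, namely TMM, library size only, TMM without the family in the library sizes, and the size factors of DESeq2. miR-181c-5p was higher in thymus than in 9, 9, 9 and 5 organs and miR-181d-5p than in 8, 9, 8 and 7, and 5, 8, 8 and 4 and 5, 8, 7 and 6 of these calls were kept in all 4 scalings.

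Between thymus and brain, the log2 fold change of miR-181a-5p (thymus minus brain, ± SE) was 3.29 ± 0.19 at week 2, 2.92 ± 0.20 at week 6 and 2.68 ± 0.21 at week 21. At week 104 it was -0.19 ± 0.25 and was not called (edgeR adjusted p = 0.483). With library size only it was -0.82 at that age and brain was called higher (edgeR adjusted p = 0.0027). miR-181b-5p was lower in thymus than in brain at week 104 in all 4 scalings (-0.56 ± 0.23, edgeR adjusted p = 0.0205). The call was lost without replicate 4 of each group (log2 0.26 for brain minus thymus, edgeR adjusted p = 0.34), with the 2 left-out libraries used again (0.32, adjusted p = 0.211) and with miRNAs of a mean count of at least 10 alone (0.05, adjusted p = 0.833). Replicate 4 of female brain at week 104 is the library with the low share of miRNA reads, and its part in this was not tested. Scaling moved all values of this pair of organs, since the median log2 difference over all miRNAs (brain minus thymus) was 0.18, 0.14, 0.70 and 0.40 at weeks 2, 6, 21 and 104 with TMM and 1.40, 1.45, 1.67 and 1.09 with library size only. The direction of miR-181c-5p flipped with it, as thymus minus brain was 0.53 at week 2 with TMM and -0.79 with library size only.

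Testis held the highest mean of miR-181c-5p and of miR-181d-5p at week 2. The levels of miR-181c-5p in the 4 testes were 14303, 15798, 17913 and 18867 CPM at week 2, 2595, 2838, 2930.2 and 3166 CPM at week 6, 1059, 1246, 1398 and 1439 CPM at week 21 and 337, 987, 1007 and 1717 CPM at week 104. All week-2 testes lay above all brain libraries of that age, the highest of which had 12771 CPM. miR-181c-5p was called higher in week-2 testis than in 10 of 10 organs in all 4 scalings, and miR-181d-5p in 10 of 10, of which 8 were kept in all scalings, against 37.1% of all tests at that age. At weeks 6, 21 and 104, testis was called higher than 3, 3 and 5 organs for miR-181c-5p, against 34.4, 32.4 and 32.5% of all tests. The summed level of 6 germ cell miRNAs in testis had a median of 7545, 196569, 190070 and 979 CPM at the 4 ages, and its part in these results was not tested.

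Liver was at the low end. Over the 4 ages it was called lower than the other organ in 38 of 40 tests for miR-181a-5p, 40 for miR-181b-5p, 37 for miR-181c-5p and 38 for miR-181d-5p, against 32.9% over all miRNAs. As a check of the labels, the summed level of 2 liver cell miRNAs (miR-122-5p and miR-122-3p) had medians from 29462 to 32559.5 CPM in liver over the 4 ages and at most 196 CPM in any other organ. That of 5 nervous tissue miRNAs was 75118 to 113475 CPM in brain and at most 6432 CPM elsewhere. That of 6 striated muscle miRNAs was 75686 to 151612 CPM in muscle. Its level in other organs is not given here, so it does not tell muscle from them. No list was held for adrenal gland, kidney or lung. These medians describe groups, and a single mislabeled library would not show in them.

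The second question was how the members changed with age, and among the organs miR-181a-5p changed most in thymus. Its lowest, median and highest level there at week 104 was 13923, 67427 and 105875 CPM, and the 8 libraries in order were 13923, 18278, 23344, 55158, 79696, 82865, 97821 and 105875 CPM. Every week-104 library lay below every week-21 library, the lowest of which had 249345 CPM, and the 3 lowest were male replicates 1 and 4 and female replicate 1. The log2 fold change was -3.03 ± 0.32 at week 104 against week 2 (edgeR adjusted p = 3.52e-10) and -2.76 ± 0.32 against week 21 (edgeR adjusted p = 6.07e-09). Between weeks 2 and 6 it was -0.08 ± 0.30 and was not called (edgeR adjusted p = 0.981).

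All 10 members had a negative log2 fold change in thymus at week 104 against week 2, and 9 of them fell. For comparison, 33.0% of all miRNAs fell in this contrast and 25.0% rose. miR-181b-5p fell by 3.001 on the log2 scale (SE 0.29), miR-181a-1-3p by 3.41 (SE 0.31) and miR-181b-1-3p by 3.57 (SE 0.30), of which the 3p strands are from chr13. miR-181a-2-3p fell by 2.06, miR-181b-2-3p by 1.89, miR-181c-5p by 2.13, miR-181c-3p by 2.19 and miR-181d-5p by 1.62. miR-181d-3p, at or below 3 counts in 28 of 32 thymus libraries, was at -1.32 and was not called.

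Other miRNAs moved with the family in thymus. Of the 8 miRNAs of a lymphoid list, 7 have a row, and 6 fell and 1 rose between weeks 2 and 104, with a median log2 fold change of -1.53, against -0.19 over all miRNAs. miR-142-3p, abundant in blood cells, fell by 2.67, and miR-20b-5p by 2.58 and miR-363-3p by 2.42, both of the X-linked cluster related to miR-17-92. miR-342-3p fell by 0.89, while miR-150-5p, a miRNA of mature lymphocytes, rose by 0.46. miR-155-5p, induced in activated immune cells, fell by 0.35 with TMM and was at -0.02, not called, with library size only. The lowest, median and highest sum of the list was 39005, 46866 and 59983 CPM at week 2 and 11955, 25935 and 30864 CPM at week 104, without overlap.

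miRNAs of several other cell types rose in the same contrast. The lowest, median and highest sum of 4 red blood cell miRNAs went from 809, 1099 and 1891 CPM at week 2 to 6286, 15147 and 93919 CPM at week 104, and all 4 rose. For 2 endothelial miRNAs the sums were 2908, 3844 and 7154 CPM and 9242, 20718 and 29035 CPM (both rose), and for 6 miRNAs of smooth muscle and fibroblasts 96866, 104765 and 121605 CPM and 110948, 132654 and 171362 CPM (5 rose). The 3 myeloid miRNAs all rose, as did 3 of 5 epithelial ones. No miRNA of these 5 lists was at 0 in all libraries of either age. In nervous tissue miRNAs 1 of 5 rose and 2 fell, 2 of 6 striated muscle miRNAs fell and 1 of 6 germ cell miRNAs rose and 1 fell, while the 2 liver cell miRNAs summed to at most 23.9 CPM. The part of other cells in the fall of the family was not tested, and in these bulk samples fewer cells of a type and less RNA per cell cannot be told apart. Male replicates 1 and 4 of week 104 had the lowest sums of the epithelial miRNAs (978 and 1656 CPM, against 4792 to 13252 CPM in the others), and male replicate 3 the highest of the red blood cell miRNAs. Without these 3 libraries, a choice made after seeing the data, the log2 fold changes were -2.68 for miR-181a-5p, -2.44 for miR-181b-5p, -1.79 for miR-181c-5p and -1.17 for miR-181d-5p. That leaves 1 male thymus library at week 104, and as the sexes weigh equally these values lean on it. In spleen, the other lymphoid organ, miR-181a-5p was at -0.59 ± 0.22 (edgeR adjusted p = 0.0277), a call lost with the size factors of DESeq2 (DESeq2 adjusted p = 0.0797), with the family left out of the library sizes, with the 2 left-out libraries used again, with miRNAs of a mean count of at least 10 alone, and without replicate 1, 3 or 4 (-0.38 without replicate 1). There 3 of the 7 lymphoid miRNAs rose, against 15.4% of all miRNAs. Week 2 of spleen is the group with low RNA integrity numbers.

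**Figure D2:**
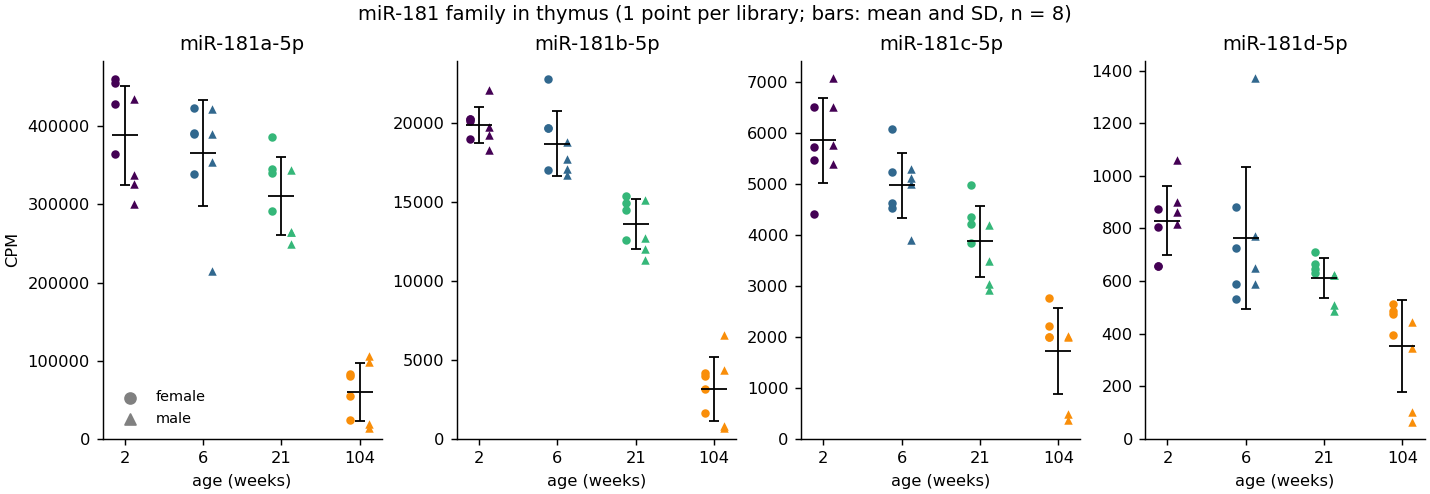
Levels of the 4 5p members in thymus in CPM (y axes start at 0) by age in weeks, with circles for female and triangles for male libraries and bars for mean and SD (n = 8). All week-104 points of miR-181a-5p and miR-181b-5p lie below all points of the earlier ages, and at week 104 miR-181a-5p runs from 13923 to 105875 CPM.

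Over all 11 organs, the 5p members mostly fell with age. Of 44 tests (4 members in 11 organs) of week 104 against week 2, 38 were called lower and 3 higher, against 28.1% lower and 21.8% higher over all miRNAs. Of the lower calls, 37 held in all 4 scalings, and each of the higher calls was lost in at least 1. From week 2 to 6, 22 fell and 3 rose, from week 6 to 21 there were 16 calls, each of them lower, and from week 21 to 104 16 fell and 3 rose. Of the 3 rises between weeks 2 and 6, 1 was kept in all 4 scalings. The 3 rises after week 21 were all in testis (miR-181b-5p, miR-181c-5p and miR-181d-5p), and none was kept, as each had a negative sign with library size only. Over all miRNAs, 20.6, 8.94 and 8.66% fell and 15.4, 7.39 and 7.38% rose in these 3 steps.

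miR-181c-5p and miR-181d-5p fell in 10 of 11 organs each, the exception being uterus. Every week-104 library lay below every week-2 library for both in 10 organs, uterus included and liver excepted. In muscle, the lowest, median and highest level of miR-181c-5p was 1742, 2032 and 2326 CPM at week 2, 866, 1319 and 1413 CPM at week 6, 262, 388 and 500.4 CPM at week 21 and 97.4, 141 and 171 CPM at week 104. The levels of weeks 21 and 104 did not overlap with those of week 2, and the log2 fold change from week 2 to 104 was -2.97 ± 0.18 (edgeR adjusted p = 1.06e-16). It was -2.57 ± 0.19 in adrenal gland and -2.55 ± 0.31 in testis, and for miR-181d-5p -2.999 ± 0.29 in testis and -2.47 ± 0.14 in adrenal gland. In uterus, the 4 levels of miR-181c-5p were 2738, 3719, 3778 and 4207 CPM at week 2 and 784, 2165, 2264 and 2569 CPM at week 104. The log2 fold change there was -0.03 ± 0.22 with TMM (edgeR adjusted p = 0.959) and -0.89 with library size only, which was called (edgeR adjusted p = 0.00721).

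In brain, the levels of miR-181a-5p at weeks 2 and 104 overlapped. The lowest, median and highest level was 65649, 106687 and 131658 CPM at week 2 and 75155, 109181 and 131387 CPM at week 104. With TMM it rose by 0.54 (edgeR adjusted p = 0.00434), and with library size only the value was 0.11 and was not called (edgeR adjusted p = 0.483). miR-181b-5p in brain was at 0.59 ± 0.10 with TMM, which was called, and at 0.17 with library size only (edgeR adjusted p = 0.0802). In the same libraries miR-181c-5p fell by 1.20 and miR-181d-5p by 1.45, in all 4 scalings. The summed level of the nervous tissue miRNAs in brain was 96497, 113475 and 135165 CPM at week 2 and 67832, 75118 and 90261 CPM at week 104. In muscle, miR-181b-5p rose by 0.39 with TMM and was at -0.53 with library size only, so that its direction depended on the scaling. In muscle, the median log2 change of all miRNAs was -0.18 and -0.93 in these scalings, in testis -0.55 and -2.06, in uterus -0.17 and -1.13, and in brain 0.07 and -0.33.

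**Figure D3:**
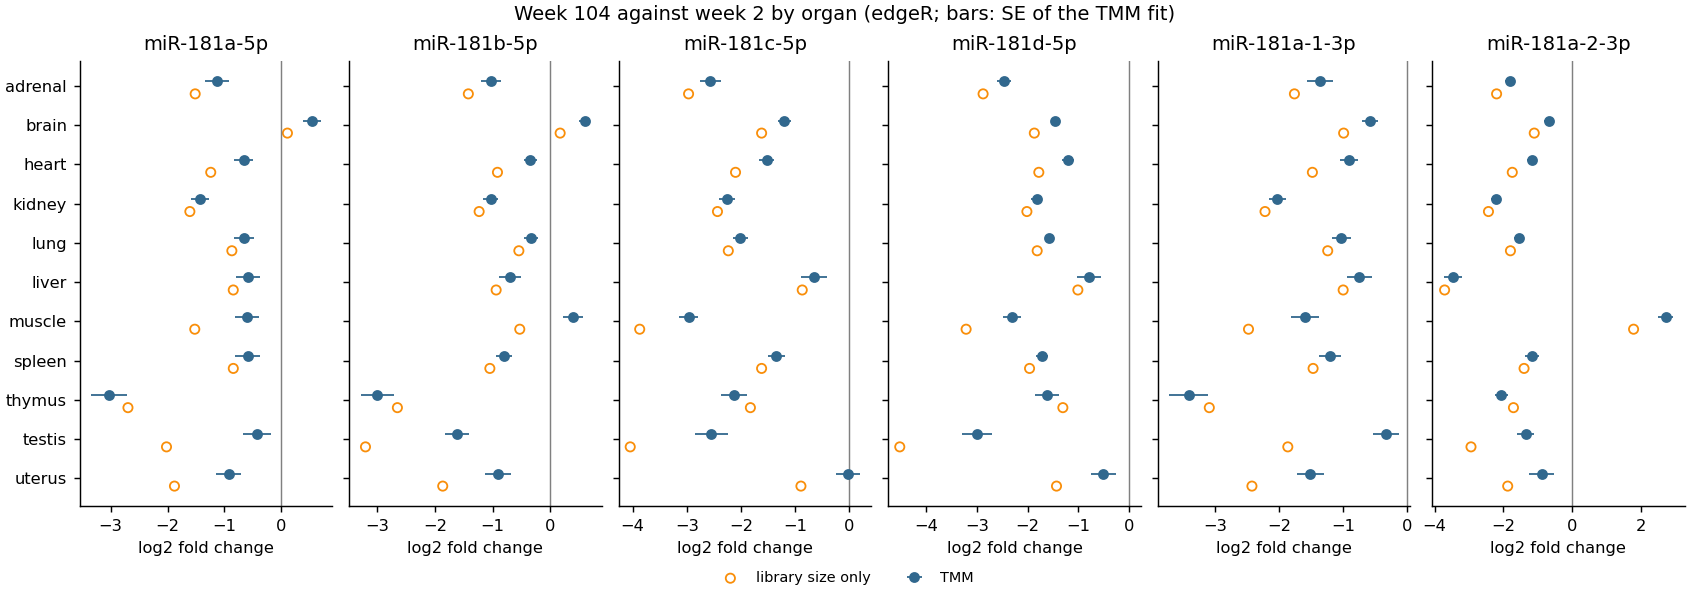
Log2 fold changes from week 2 to week 104 (x axis) in 11 organs for the 4 5p members, miR-181a-1-3p and miR-181a-2-3p. Filled points are edgeR values with TMM scaling and their SE, and open points are with library size only. miR-181a-5p is lowest in thymus, miR-181c-5p and miR-181d-5p lie below 0 in all organs (miR-181c-5p in uterus at -0.03 with TMM, with its sign turned in 3 of the alternatives), and miR-181a-2-3p lies above 0 in muscle alone.

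The 3p strands separate the gene copies. miR-181a-2-3p, from chr3, fell with age in 9 organs but rose in muscle. Its lowest, median and highest level in muscle was 25.2, 39.2 and 49.5 CPM at week 2, 31.4, 72.9 and 94.1 CPM at week 6, 70.1, 102 and 179 CPM at week 21 and 68.7, 124 and 200.3 CPM at week 104. Every week-104 muscle library lay above every week-2 one, whereas in each of the 10 other organs every week-104 library lay below every week-2 one. The log2 fold change in muscle was 2.73 ± 0.22 (edgeR adjusted p = 2.72e-13), in a contrast where 28.1% of all miRNAs rose and 31.7% fell, and it was 1.79 with library size only. By week 104, miR-181a-2-3p was higher in muscle than in 10 of 10 organs in all 4 scalings, with log2 differences from 1.11 against testis to 4.19 against liver, while at week 2 it was lower than in 10 of 10. Over all miRNAs, 24.4% of tests called muscle higher at week 104 and 35.2% called it lower at week 2.

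miR-181b-2-3p, from the same place on chr3, moved alike in muscle at a lower level. It was at 2.87, 3.98 and 5.19 CPM at week 2 and 4.55, 8.65 and 17.9 CPM at week 104, a change of 2.21 ± 0.27 on the log2 scale (edgeR adjusted p = 7.78e-09). In the same libraries miR-181a-1-3p, from chr13, fell. It was at 96.96, 111 and 137 CPM at week 2 and 8.83, 17.2 and 32.1 CPM at week 104 and fell by 1.59 (edgeR adjusted p = 8.29e-08), with no overlap between the ages. miR-181b-1-3p had 3 counts or fewer in 20 of the 32 muscle libraries, too few for its change to be read. miR-181c-3p, from chr19, fell by 2.54. The shared strand miR-181a-5p was at 13263, 15921 and 20466 CPM and 2851, 5177 and 9153 CPM and fell by 0.61 (edgeR adjusted p = 0.0135). The sum of the striated muscle miRNAs in muscle was 59281, 75686 and 105943 CPM at week 2 and 106262, 151612 and 181808 CPM at week 104, that of the red blood cell miRNAs 41029, 76083 and 161263 and 36872, 74008 and 87550.4 CPM, and that of smooth muscle and fibroblasts 44009, 51408 and 56752 and 30978, 44554 and 67166 CPM. Their part in the result was not tested.

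In liver, miR-181a-2-3p fell. It was at 83.3, 151 and 196 CPM at week 2, 9.15, 18.5 and 27.8 CPM at week 6 and 4.14, 9.45 and 22.4 CPM at week 104, with no overlap of week 2 with the later ages. It fell by 3.48 (edgeR adjusted p = 7.73e-14), while miR-181a-1-3p fell by 0.74 and the 5p strand of miR-181a by 0.59, 2 calls that leaving out replicate 1 ended (-0.47 and -0.33), as leaving out replicate 2 or 3 did for the 5p strand. Among all miRNAs, 28.9% fell in liver. miR-181b-2-3p had 3 counts or fewer in 21 of the 32 liver libraries, and its change there was not read. In testis, miR-181a-2-3p was at 370.1, 391, 484 and 553 CPM at week 2 and 44.3, 55.6, 64.1 and 70.02 CPM at week 104. It was higher in testis than in 10 of 10 organs at week 2 in all 4 scalings. At the other end, miR-181b-1-3p was higher in thymus than in 10, 10, 10 and 10 of 10 organs at the 4 ages and miR-181a-1-3p than in 10, 10, 10 and 9. miR-181d-3p was nearly absent, with a mean of at most 1.90 CPM in any organ and age.

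A ratio of 2 strands within a library does not depend on scaling. The log2 ratio of miR-181a-1-3p to miR-181a-2-3p counts (0.5 added to each) compares the 3p strands of the chr13 and chr3 copies of miR-181a. Whether it follows the output of the gene copies was not tested. In thymus its lowest, median and highest value was 5.33, 6.04 and 6.40 at week 2 and 2.26, 4.47 and 5.34 at week 104, and in brain 3.33, 3.62 and 3.92 and 3.46, 3.66 and 4.12. All thymus and brain libraries were on the chr13 side at these ages, and at week 2 no value of these 2 organs overlapped. In muscle the ratio was 1.05, 1.52 and 2.18 at week 2, -0.06, 0.26 and 0.94 at week 6, -2.14, -1.87 and -0.95 at week 21 and -3.18, -2.86 and -1.99 at week 104, so that it passed from the chr13 side to the chr3 side with no overlap between weeks 2 and 21. In liver it went the other way, with -1.40, -0.68 and 0.27 at week 2 and 0.30, 1.65 and 2.42 at week 6. After week 2 the liver ratio rests on few counts of miR-181a-2-3p. Its lowest level in liver was 4.14 CPM, with 3 counts or fewer in 1 of 32 libraries. Liver libraries had a median of 1040989 counts. The 4 testes had -1.61, -1.26, -1.20, -0.93 at week 2, all on the chr3 side.

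Over the 55 pairs of organs and 4 ages, 196 of 220 differences of this ratio were called (two-sided exact permutation test, Benjamini-Hochberg over the pairs and ages, adjusted p under 0.05). Between weeks 2 and 104, the mean went from 1.63 ± 0.36 to -2.75 ± 0.41 in muscle and from -0.65 ± 0.50 to 2.24 ± 0.73 in liver (± SD, n = 8 and 8, exact permutation adjusted p = 4.27e-04 for each). In thymus it went from 5.93 ± 0.36 to 4.29 ± 0.94 (exact permutation adjusted p = 7.60e-04), in lung from 2.12 ± 0.23 to 2.64 ± 0.42 (exact permutation adjusted p = 0.00883) and in heart from 0.28 ± 0.16 to 0.54 ± 0.23 (exact permutation adjusted p = 0.0368). In testis it went from -1.25 ± 0.28 to -0.22 ± 0.47 (n = 4 and 4, exact permutation adjusted p = 0.0419). Adrenal gland, brain, kidney, spleen and uterus did not pass the test (exact permutation adjusted p = 0.112 to 0.889). These tests pooled the sexes, which were not tested apart. In adrenal gland, males had -0.43 to -0.02 at week 2 and 0.64 to 1.19 at week 104, without overlap. Females had -0.24 to 0.12 at week 2 and -0.54 to -0.06 at week 104. In thymus, 97.4% of the 3p counts of miR-181a were miR-181a-1-3p over all ages, in brain 93.7%, in muscle 41.9% and in testis 43.02%. The 3p strands held few of the counts beside the 5p strands. Counts of miR-181a-5p per count of its 3p strands ranged from a mean of 69.1 in muscle to 156 in lung, and for miR-181c from 12.3 in thymus to 23.5 in lung.

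**Figure D4:**
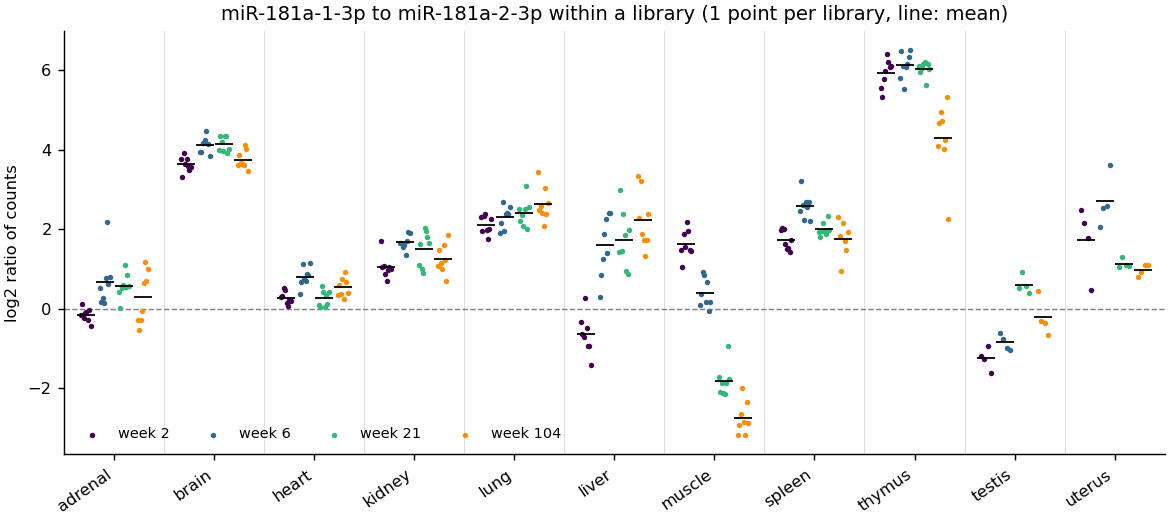
Log2 ratio of miR-181a-1-3p (chr13) to miR-181a-2-3p (chr3) counts in each library (0.5 added to each), by organ and with colors for age, with a line at the mean and a dashed line at equal counts. Thymus and brain lie above the dashed line, and muscle goes from a mean of 1.63 at week 2 to -2.75 at week 104.

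The corresponding ratio of miR-181b-1-3p to miR-181b-2-3p rests on fewer counts. Its mean went from -0.12 ± 0.52 at week 2 to -4.35 ± 0.87 at week 104 in muscle, and from 4.16 ± 0.30 to 2.18 ± 0.99 in thymus. It became lower in both and was not tested, and in thymus its mean was above 0, on the chr13 side, at both ages. In muscle it rests on the few counts of miR-181b-1-3p given above.

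The share of miR-181c-5p and miR-181d-5p in the 5p counts of the family compares the chr19 genes with the rest. In testis the 4 values at week 2 were 26.5, 27.2, 28.2, 31.7%, and at week 104 3.75, 8.14, 8.64, 14.4%. In thymus the lowest, median and highest share was 1.27, 1.48 and 2.49% at week 2 and 2.11, 3.37 and 8.77% at week 104. Thymus had the lowest mean share at weeks 2, 6 and 21, and testis the highest at week 2. At week 104 the highest means were in uterus (18.9 ± 2.61%) and heart (11.8 ± 1.55%) and the lowest in muscle (2.76 ± 0.601%). Of 220 differences between organs, 180 were called (two-sided exact permutation test, adjusted p under 0.05).

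With age the share fell in most organs. Between weeks 2 and 104 the mean went from 10.7 ± 2.64 to 3.35 ± 0.396% in brain, from 12.01 ± 1.31 to 2.76 ± 0.601% in muscle, from 8.44 ± 1.302 to 3.33 ± 0.947% in adrenal gland, from 14.7 ± 1.15 to 9.25 ± 1.02% in kidney, from 10.9 ± 1.63 to 4.56 ± 0.365% in lung and from 19.2 ± 3.79 to 11.8 ± 1.55% in heart (± SD, n = 8 and 8, exact permutation adjusted p = 4.27e-04 in each). In spleen it went from 8.11 ± 1.27 to 4.88 ± 1.35% (exact permutation adjusted p = 0.00137) and in testis from 28.4 ± 2.31 to 8.73 ± 4.37% (n = 4 and 4, exact permutation adjusted p = 0.0419). In thymus it rose from 1.66 ± 0.438 to 3.75 ± 2.17% (exact permutation adjusted p = 0.00249). Liver (7.19 ± 1.46 and 6.80 ± 2.61%, exact permutation adjusted p = 0.778) and uterus (12.1 ± 4.16 and 18.9 ± 2.61%, exact permutation adjusted p = 0.0786) did not pass the test. With 4 libraries against 4, as in uterus and testis, the unadjusted p cannot go below 0.0286. These tests and SDs pooled the sexes. In brain at week 2 the share was 7.58 to 9.93% in females and 11.4 to 14.95% in males, without overlap.

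**Figure D5:**
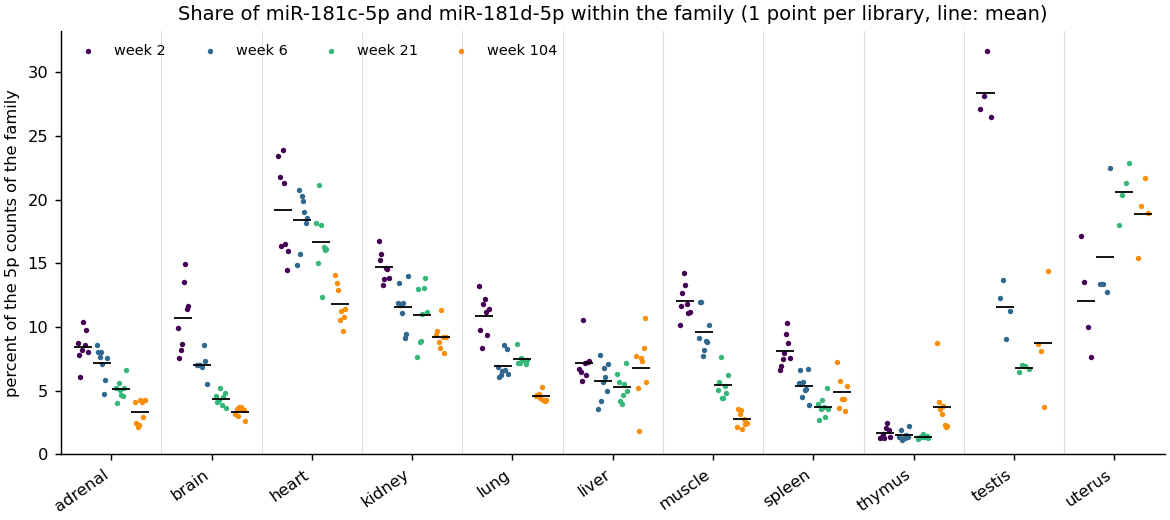
Percent of the 5p counts of the family that lie on miR-181c-5p and miR-181d-5p in each library, by organ and with colors for age, with a line at the mean. The 4 week-2 testes lie between 26.5 and 31.7%, and thymus lies at or below 2.49% up to week 21.

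The third question was whether the sexes differed. In the 9 organs taken from both, 1 of 144 tests of a 5p member was called at some age, and 8 had an unadjusted p under 0.05, against 1.32% of tests over all miRNAs called. The call was miR-181d-5p in heart at week 104, with levels of 260.2, 315, 316 and 328 CPM in males and 359, 402, 413 and 436 CPM in females. All males lay below all females. The log2 fold change (male minus female) was -0.59 ± 0.16 (edgeR adjusted p = 0.0414). It was not called with library size only (edgeR adjusted p = 0.0822) or with the family left out of the library sizes (edgeR adjusted p = 0.0639). DESeq2 called it (adjusted p = 0.0102).

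Among the 3p members, 2 of 216 tests were called and 18 had an unadjusted p under 0.05. Both calls were miR-181a-2-3p, and both were lost with library size only (edgeR adjusted p = 0.0977 in adrenal gland and 0.292 in kidney), where miR-181c-3p in brain at week 2 was called instead (edgeR adjusted p = 0.018). DESeq2 called all 3. In adrenal gland at week 104 its levels were 12.005, 14.02, 15.4 and 21.8 CPM in males and 22.2, 26.6, 29.3 and 37.4 CPM in females, without overlap, with a log2 fold change of -0.83 ± 0.21 (edgeR adjusted p = 0.0418). In kidney at week 2 they were 83.9, 103, 109 and 133 CPM and 46.8, 66.2, 89.9 and 91.2 CPM, with overlap, and the log2 fold change was 0.80 ± 0.19 (edgeR adjusted p = 0.0104). The change of the sex difference between weeks 21 and 104 was called in 0 of 36 tests of 5p members and 0 of 54 of 3p members by edgeR, and in 0 of either by DESeq2, with 1 and 5 unadjusted p under 0.05. Over all miRNAs, 0.307% were called. The within-library ratio and share were not tested between the sexes. In week-104 adrenal gland the miR-181a-1-3p to miR-181a-2-3p log2 ratio was -0.54 to -0.06 in females and 0.64 to 1.19 in males. The share of miR-181c-5p and miR-181d-5p in week-2 brain was 7.58 to 9.93% in females and 11.4 to 14.95% in males. The sexes overlapped in other groups, such as week-21 thymus (ratio 5.95 to 6.16 in females, 5.62 to 6.21 in males).

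Across the 44 organ-by-age groups, the levels followed the gene pairs. Pearson's r of the mean log2(CPM + 1) was 0.966 between miR-181a-5p and miR-181b-5p and 0.972 between miR-181c-5p and miR-181d-5p, against 0.769 between miR-181a-5p and miR-181c-5p and 0.758 between miR-181a-5p and miR-181d-5p. These are descriptions over 44 points that share organs and libraries, and the members of each of the first 2 pairs are encoded next to each other. Outside the family, the miRNAs with the most similar pattern to miR-181a-5p were miR-342-3p (0.795), miR-301a-3p (0.795), miR-342-5p (0.789), miR-361-5p (0.786) and miR-130b-5p (0.784). For miR-181b-5p they were miR-187-3p (0.788) and miR-873-5p (0.785). For miR-181c-5p and miR-181d-5p they were miR-125b-1-3p (0.806 and 0.805) and miR-301a-3p (0.800 and 0.755). All of these lay below the value of each member with its partner in the same cluster.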

How the data were processed

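Small RNA of 320 organ samples was sequenced by the authors, who trimmed the reads with fastp 0.23.2 and aligned them with Bowtie 1.3.1 to miRBase and other RNA sets (build rn7 is named in the submitters' processing notes). The deposited values are raw read counts per miRNA, without normalization. miRNAs with a low mean count had been filtered by the authors. Here the 10 rows of the family were followed. The members and lists were chosen with earlier results of these data known. CPM used the total of all 616 rows.

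edgeR 4.0.16 (R 4.3.3, quasi-likelihood test, TMM) was fitted over all 616 miRNAs, in 1 fit per age for organs and 1 per organ for sex and age, with Benjamini-Hochberg adjustment, and was tested on simulated data. DESeq2 1.42.0, other library sizes, filters, covariates, a replicate block and left-out replicates were alternatives. Within-library shares and ratios were compared with exact permutation tests that pooled the sexes (NumPy 2.4.6). The named miRNAs are all family rows, the 5 outside the family whose mean log2(CPM + 1) correlated best with miR-181a-5p over 44 groups, the 2 for each other 5p member (mean count of at least 10), and a lymphoid list. Sequences and positions are from RefSeq (GRCr8).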

Additional observations from a re-analysis of the deposited data

Results flagged for a closer look

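Of 264 groups examined for a single library far from the rest (Dixon's criterion, which chance meets in about 1 group in 20), 18 had one. In adrenal gland at week 6, male replicate 2 had 21910 CPM of miR-181a-5p (10658 to 12858 in the others), 1123 CPM of miR-181b-5p (564 to 758) and a log2 ratio of miR-181a-1-3p to miR-181a-2-3p of 2.18 (0.14 to 0.80). In adrenal gland at week 21, male replicate 1 had 92.6 CPM of miR-181b-5p (333 to 495) and 81.9 CPM of miR-181c-5p (316 to 445). In liver at week 104, female replicate 4 had 12128 CPM of miR-181a-5p (3285 to 7099) and 424 CPM of miR-181b-5p (109 to 243). In thymus at week 6, male replicate 4 had 214802 CPM of miR-181a-5p (339170 to 423913) and 1372 CPM of miR-181d-5p (533 to 880), low in the first and high in the second.

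The share of miR-181c-5p and miR-181d-5p in the 5p counts of the family stood apart in 4 libraries. It was 8.70% in lung at week 21, female replicate 1 (7.07 to 7.53% in the others), and 10.6% in liver at week 2, female replicate 4 (5.78 to 7.29%). In thymus at week 104, female replicate 1 had 8.77% (2.11 to 4.09%), and in uterus at week 6 replicate 4 had 22.5% (12.8 to 13.4%).

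The log2 ratio of miR-181a-1-3p to miR-181a-2-3p stood apart in 5 more. It was 1.71 in kidney at week 2, female replicate 1 (0.69 to 1.07 in the others), -0.95 in muscle at week 21, male replicate 3 (-2.14 to -1.71), and 3.23 in spleen at week 6, female replicate 2 (2.21 to 2.69). In thymus it was 5.62 at week 21 in male replicate 2 (5.95 to 6.21) and 2.26 at week 104 in male replicate 4 (4.02 to 5.34).

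A further result stood out for its direction. miR-181a-2-3p rose in muscle between weeks 2 and 104 (log2 fold change 2.73), where every week-104 library lay above every week-2 one, whereas in 10 other organs every week-104 library lay below every week-2 library. The difference between the organs was not tested.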

How the results depend on the processing

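Of 1397 repeats of 105 member values under the alternatives, 1299 kept their direction and their side of the threshold, 60 lost the call, 15 gained one and 23 changed sign. The organ comparison gave 727 calls for 5p members, 571 to 756 in the other settings and 676 to 707 when a replicate was left out (726 without the thymus library of male replicate 1 at week 104). The age comparison gave 101 calls, 88 to 115 in the other settings and 85 to 93 without a replicate (101 without that library), but 43 when a fold above 1.5 was asked for (glmTreat). The single sex call was lost (0 calls) with library size only and with the family left out of the library sizes, and 0 to 1 were left without a replicate. The interaction of sex and age gave 0 calls in every setting. Within-library shares gave 161 to 180 calls between organs, 161 to 172 without a replicate. The ratio of the miR-181a copies gave 178 to 197, and 178 to 183 without a replicate. The tests of these measures by age gave 11 to 15, and 11 to 13 without a replicate. Without spleen at week 2 the age comparison gave 95 calls, a choice made after seeing the data. Leaving out 3 thymus libraries of week 104 leaves 1 male library in that group, so no count of calls is given for it.

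These values changed sign, with the cause not tested. With library size only, brain minus thymus was 0.79 for miR-181c-5p and 1.27 for miR-181d-5p at week 2, 0.78 and 0.49 at week 6, and 0.075 and 0.085 at week 21, and miR-181b-5p in muscle was -0.53 at week 104 against week 2. With DESeq2 it was 0.15 for miR-181c-5p at week 6 and 0.11 for miR-181d-5p at week 2, and 0.011 for the latter with the family left out of the library sizes. With a mean count of at least 10, brain minus thymus at week 104 was -0.33 for miR-181a-5p, -0.19 for miR-181c-5p and -0.49 for miR-181d-5p, and 0.19 for miR-181d-5p at week 2. In the same setting, week 104 against week 2 was 0.010 for miR-181c-5p in uterus and 0.030 for miR-181a-1-3p in testis. With all 320 libraries, brain minus thymus at week 104 was -0.058 for miR-181a-5p and -0.20 for miR-181d-5p, and with lane as a covariate it was -0.00996 for miR-181d-5p. When a replicate was left out it ran from -0.12 (without replicate 4) to 0.51 for miR-181a-5p and from -0.21 (without replicate 4) to 0.12 for miR-181d-5p. In uterus, miR-181c-5p at week 104 against week 2 ran from -0.13 to 0.28, above 0 without replicate 1 and without replicate 2.

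The replicate block left 727 organ calls, 101 age calls, 1 sex call and 0 interaction calls, and changed no other call. Residuals of libraries with the same number were hardly correlated (median r 0.00716 between organs, 0.0085 between ages and 0.00055 between sexes), so the numbers were not taken as pairs. The study took the organs of an age from the same rats. The labels do not say which libraries share a rat, and the permutation tests between organs treated libraries as independent. Testis and uterus have 4 libraries per age, and miR-181d-3p, miR-181b-1-3p in liver and muscle and miR-181b-2-3p in liver were too few in counts for their changes to be read. Counts cover miRNAs alone, and reads of near-identical members may be shared.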

Other observations

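The 2 libraries that were left out had these levels. In the male brain library of week 6, replicate 3, miR-181a-5p was at 72341 CPM, below the 101097 to 146352 CPM of the other replicates, and miR-181c-5p at 4718 CPM, below 7993 to 8911 CPM. In the female spleen library of week 104, replicate 4, miR-181a-5p was at 30905 CPM, within the 11631 to 32752 CPM of the other replicates, and miR-181c-5p at 1884 CPM, above 842 to 1094 CPM.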
